A study of Arabidopsis thaliana with 9 samples.

Results

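Dry seeds of the near isogenic line NILDOG1 were compared with dry seeds of Ler, the Landsberg erecta wild type of Arabidopsis thaliana. The comparison takes the 3 arrays titled NILDOG1 and the 3 titled Ler, 6 of the 9 arrays of the series. The remaining 3, of the dog1-1 mutant, entered the fit of the spread and are quoted beside single genes. All 3 genotypes have the Landsberg erecta background, and all seeds were mature, dry and freshly harvested. NILDOG1 carries DOG1 of the Cvi accession and its DOG1 expression is labelled strong, against low in Ler and absent in dog1-1. Each biological replicate was a bulk of plants. NILDOG1 is a single line, so any other Cvi sequence in it goes with the Cvi allele of DOG1, and the effects of both cannot be told apart. For a gene inside Cvi sequence, a difference in transcript level and a difference in how its transcript binds the probes cannot be told apart either. In whole seeds, fewer cells of a type and less RNA per cell cannot be told apart.

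DOG1 (DELAY OF GERMINATION 1) sets the depth of seed dormancy in Arabidopsis. Its product accumulates as seeds mature, and seeds that lack it germinate when fresh. The protein binds clade A PP2C phosphatases, which hold back abscisic acid signalling, and it acts beside that hormone rather than through its level. Accessions differ in DOG1, and Cvi, from the Cape Verde Islands, is known for deep dormancy. DOG1 lies on chromosome 5, so the genes of that chromosome are described apart from those of chromosomes 1 to 4. The annotation used here assigned no probe set to DOG1 (AT5G45830), and its own level was not analysed here.

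All levels are log2 signals, so a difference of 1 is 2-fold, and errors are standard deviations over 3 arrays unless a standard error (SE) is named. A mean of at most 2.56, the highest signal of the TrpnX control probe sets, was taken as background. The arrays had the profile of a dry seed. In Ler and NILDOG1 the median levels were 11.90 and 11.99 for 29 LEA genes, 11.84 and 11.90 for 5 seed storage genes, and 11.09 and 11.23 for 4 oil body genes. They were 2.82 and 2.79 for 2 seed coat genes, 3.19 and 3.03 for 2 endosperm genes, and 6.06 and 5.89 for 3 photosynthesis genes. Between Ler and NILDOG1 arrays Pearson correlations lay between 0.990 and 0.995, close to those within Ler (0.992 to 0.996) and within NILDOG1 (0.994 to 0.996). Replicate 1 of Ler lay far from all other arrays on principal component 2 (30.6, against -15.8 to 4.1 on the other arrays) and had the lowest 25S ribosomal RNA control signal (7.33).

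Few genes differed. Of 22746 probe sets, limma called 124 at an adjusted p of 0.05 (0.545%), 73 higher in NILDOG1 (0.321%) and 51 lower (0.224%). Of the 124, 71 differed at least 2-fold (0.312%), while 88 probe sets differed 2-fold without regard to a test (0.387%). At an unadjusted p under 0.05 there were 1343 (5.9%). A single gene could be named for 69 of the 124: 57 on chromosome 5, 11 on chromosomes 1 to 4 and 1 in the plastid genome. The plastid gene was petN, a small subunit of the cytochrome b6f complex (-0.69, adjusted p = 0.0449). The 55 without a single gene could not be placed. Without Ler replicate 1 the total was 88, without Ler replicate 3 it was 80, without NILDOG1 replicate 1 it was 65, and without NILDOG1 replicate 2 it was 67. With every array centred on the hybridization controls the whole table shifted to a median of 0.167, and 152 probe sets were called, 124 of them higher.

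**Figure D1:**
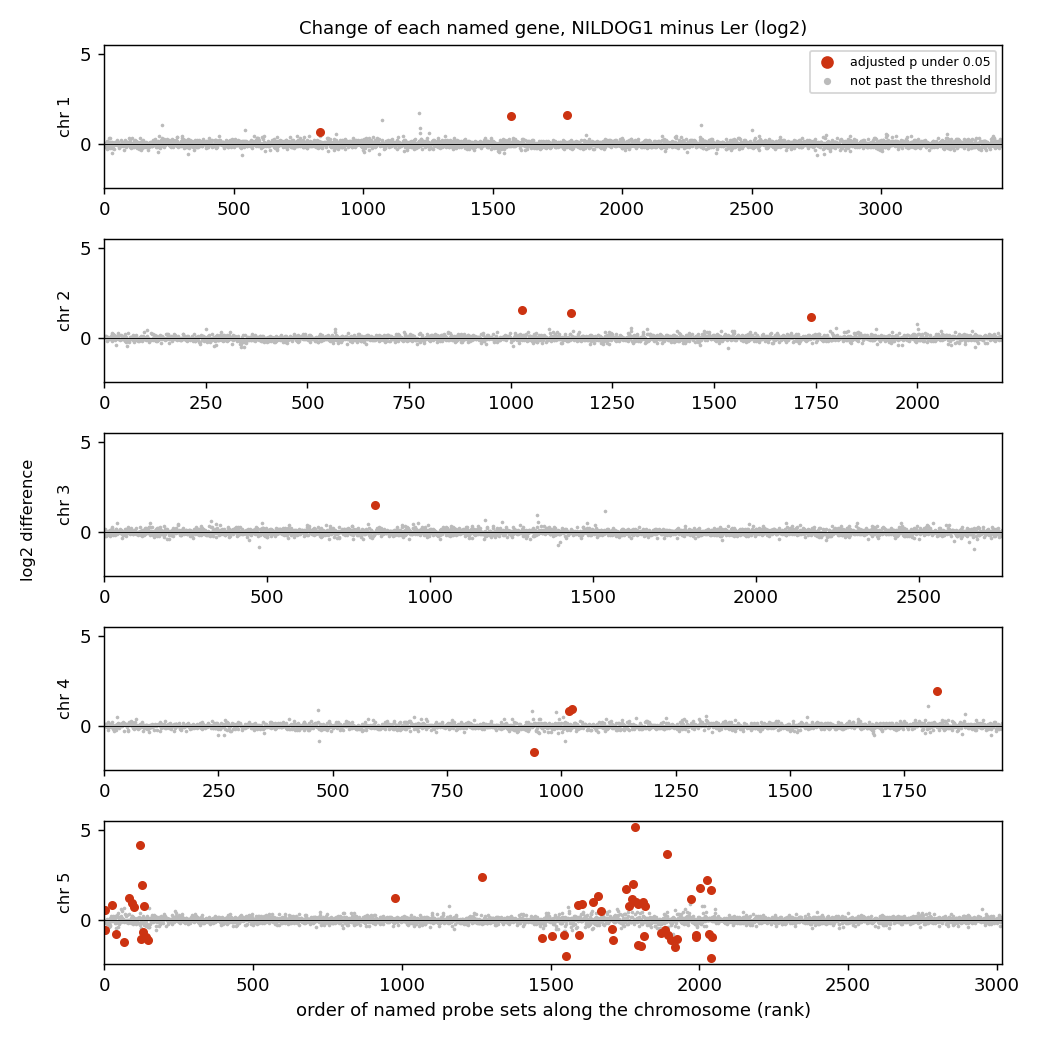
Log2 difference between NILDOG1 and Ler (vertical axis, means of 3 arrays each) for every probe set with 1 named gene, in the order of the genes along chromosomes 1 to 5 (horizontal axis, rank). Red points passed an adjusted p of 0.05: 11 on chromosomes 1 to 4 and 57 on chromosome 5, where most lie in 2 stretches.

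Outside chromosome 5, 11 of 10397 probe sets with a named gene were called (0.106%). Of these, 10 genes, among them a receptor-like kinase, a lectin, a calmodulin-like protein, a cytochrome P450 and a cysteine protease, were higher in NILDOG1, by 0.68 to 1.95. The remaining gene, AT4G18975, was lower. In all 11 the arrays of the 2 genotypes did not overlap, against 9.32% of all probe sets. The lack of overlap held for all 124 called probe sets, so it goes with the call and is no further support. The count outside chromosome 5 was 8 without Ler replicate 1, 6 without Ler replicate 2 and 7 without Ler replicate 3. It was 6 without NILDOG1 replicate 1 and 4 without NILDOG1 replicate 2. Calls in all 16 alternative settings were those of 4 genes (AR781, AT1G42705, AT4G18975 and CP1), and each of the 11 kept its sign in all of them.

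The genes that rose are given by role, beginning with a receptor-like kinase gene. AT1G18390, of the LRK10-like group, had 2.63, 2.74 and 2.91 on the Ler arrays and 3.58, 3.41 and 3.34 on the NILDOG1 arrays. It was a faint gene in both genotypes, with all NILDOG1 arrays above all Ler arrays. It rose 1.61-fold (adjusted p = 0.0108). AT1G33590, which encodes a leucine-rich repeat protein, had 3.24, 2.83 and 2.96 in Ler and 4.53, 5.19 and 3.91 in NILDOG1. It rose 2.90-fold (SE 0.292 on the log2 scale, adjusted p = 0.0411). Its NILDOG1 arrays spread over more than 1 log2 unit, with replicate 2 at the top. AT3G16530, a gene of the legume lectin family, had 4.20, 3.58 and 4.01 in Ler and 5.30, 5.83 and 5.19 in NILDOG1, a rise of 2.86-fold (adjusted p = 0.0099). CML42, a calmodulin-like calcium sensor that also limits trichome branching, had 3.67, 3.69 and 3.97 in Ler and 4.75, 5.02 and 4.38 in NILDOG1, a rise of 1.92-fold (adjusted p = 0.0202). In both of these genes replicate 2 was again the highest NILDOG1 array and replicate 3 the lowest. AR781, whose role is not well known, went from 2.97, 2.95 and 3.12 to 4.62, 4.49 and 4.09. It rose 2.61-fold (SE 0.18, adjusted p = 0.00269).

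The largest rise among the named genes outside chromosome 5 was that of CP1. This gene of a papain-type cysteine protease related to RD21A had 4.96, 5.01 and 4.67 in Ler and 6.75, 7.35 and 6.39 in NILDOG1. It rose 3.87-fold (SE 0.228 on the log2 scale, adjusted p = 0.0012), and the gap between the genotypes was wider than the range of either. CYP71B6, a cytochrome P450 that converts indole-3-acetonitrile, had 5.34, 5.25 and 5.13 in Ler and 6.85, 7.42 and 6.12 in NILDOG1. The Ler arrays lay close together (SD 0.107) and the NILDOG1 arrays did not (SD 0.654), and the rise of 2.94-fold had an adjusted p of 0.0337. YLS5, a DJ-1 family gene named for its expression in yellowing leaves, had 6.18, 6.26 and 6.30 in Ler and 7.28, 7.90 and 7.0 in NILDOG1. It rose 2.22-fold (adjusted p = 0.0312) with the same contrast of spreads (SD 0.0597 and 0.459). The calls of AT1G33590, CYP71B6 and YLS5 were each lost in 7 of the 16 settings, among them the fit of the 6 arrays alone and those without NILDOG1 replicate 1 or 2.

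The other calls were AT1G42705, AT4G20480 and AT4G18975. AT1G42705 is annotated as a pseudogene, and its probe set is of a type that may bind transcripts of more than 1 gene, so the source of its signal is uncertain. It had 4.42, 3.71 and 3.78 in Ler and 5.50, 5.73 and 5.50 in NILDOG1, 3.04-fold higher (adjusted p = 0.000816). AT4G20480 had 7.68, 7.30 and 7.14 in Ler and 8.26, 8.35 and 8.06 in NILDOG1, 1.80-fold higher (adjusted p = 0.0166). AT4G18975, which encodes a pentatricopeptide repeat protein, a class that acts on organelle RNA, had 7.22, 7.65 and 7.45 in Ler and 6.09, 5.86 and 6.0 in NILDOG1. It fell 2.75-fold, and its adjusted p of 5.54e-05 was the lowest among the named genes of chromosomes 1 to 4.

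**Figure D2:**
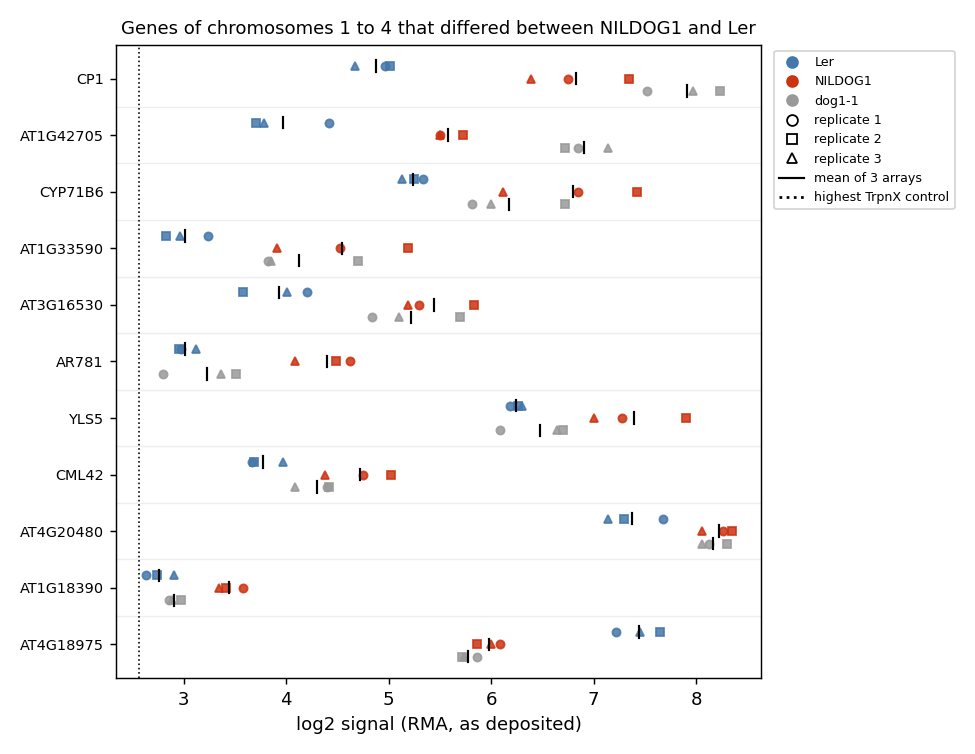
Log2 signal of every array (horizontal axis) for the 11 genes of chromosomes 1 to 4 that passed the threshold, by genotype (colour) and replicate (marker shape), with the mean of each genotype as a black bar. No NILDOG1 array overlaps a Ler array, and NILDOG1 replicate 2 (square) is the highest NILDOG1 array in 8 of the 10 genes that rose.

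The 10 genes that rose varied together among the NILDOG1 arrays. Replicate 2 was the highest NILDOG1 array in 8 of them and replicate 3 the lowest in 9, against 33.9% and 33.6% of all probe sets. Their mean level was 5.74, 6.07 and 5.40 on NILDOG1 replicates 1, 2 and 3, and 4.53, 4.33 and 4.40 on the Ler arrays. The median SD of the 10 was 0.33 within NILDOG1 and 0.175 within Ler, while for the 29 probe sets higher on chromosome 5 it was 0.166 and 0.161. The part of this variation in the calls was not tested beyond the settings without 1 array given above.

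Most of the 4 calls on chromosome 4 lay close together. AT4G18975, AT4G20480 and CML42 (AT4G20780) fall in a stretch with 85 probe sets of named genes, of which 3 were called (3.53%), while 1 of the other 1879 on that chromosome was called, CP1 at AT4G36880. The stretch was bounded by the calls themselves, so these shares are a description. Just beyond the threshold the same part of the chromosome held AT4G20320 (-0.83, adjusted p = 0.0521) and AT4G18920 (0.84, adjusted p = 0.0531), named after their values were seen.

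The dog1-1 arrays, with DOG1 labelled absent, give a further level for each gene. Both mutant and NILDOG1 were set against the same Ler arrays, so their differences from Ler are not independent. In 3 genes the dog1-1 mean was within 0.23 of the Ler mean: AR781 had 3.22 ± 0.379 in dog1-1, AT1G18390 had 2.90 ± 0.0568 and YLS5 had 6.48 ± 0.337. These 3 were higher in NILDOG1 than in dog1-1 as well, by 1.18, 0.54 and 0.92 (adjusted p = 0.000797, 0.00419 and 0.0115), where 12.5% of all probe sets passed. They were grouped by a dog1-1 mean close to Ler after passing against Ler, so this difference was largely fixed by the choice. It is no separate support. CP1 and AT1G42705 had their highest level in dog1-1, 7.91 ± 0.362 and 6.91 ± 0.215, and NILDOG1 minus dog1-1 was -1.07 and -1.33 (adjusted p = 0.00735 and 0.000284). For the remaining 6 the difference between NILDOG1 and dog1-1 did not pass. It ran from 0.06 for AT4G20480 (adjusted p = 0.865) to 0.62 for CYP71B6 (adjusted p = 0.218), and AT4G18975 was at 5.77 ± 0.0745 in dog1-1. In all 6, dog1-1 lay on the same side of Ler as NILDOG1. Rises in dog1-1 ran from 0.53 for CML42 (adjusted p = 0.0479) to 1.28 for AT3G16530 (adjusted p = 0.00235). AT4G18975 differed by -1.67 (adjusted p = 2.05e-06). CYP71B6 alone of the 6 did not pass (0.94, adjusted p = 0.0502). CP1 and AT1G42705 passed too (3.03 and 2.94), but AR781, AT1G18390 and YLS5 did not. Of all probe sets, 13.6% passed for dog1-1 against Ler.

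On chromosome 5, 57 of 3018 probe sets with a named gene were called (1.89%), for 56 genes, of which AT5G47400 had both of its probe sets called (-0.98 and -0.84). Of the 57, 29 were higher and 28 lower. Rises ran from 0.48 to 5.15 and falls from -0.52 to -2.11, and 17 and 12 of them reached 2-fold. The count was 45 without Ler replicate 1, 33 without NILDOG1 replicate 1 and 36 without NILDOG1 replicate 2. Almost all lay in 2 stretches: 15 of 147 probe sets between AT5G01015 and AT5G03670 (10.2%), and 40 of 572 between AT5G37310 and AT5G48370 (6.99%), which holds DOG1. Both stretches were drawn from the calls, so their shares are a description. Among the other 2299 probe sets of the chromosome 2 were called (0.087%), AT5G28110 and AT5G20950, a gene of glycosyl hydrolase family 3 (1.2, adjusted p = 0.0399).

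The largest rise was that of AT5G43450, of the 2-oxoglutarate-dependent dioxygenase family, with 3.11, 2.96 and 2.77 on the Ler arrays and 7.91, 8.20 and 8.20 on the NILDOG1 arrays. The gap between the genotypes was many times the range within either, and the rise was 35.5-fold (SE 0.117 on the log2 scale, adjusted p = 4.52e-10). LUL1 (AT5G03200), a ubiquitin ligase gene of the other stretch, had 3.08, 3.28 and 2.70 in Ler and 7.34, 6.98 and 7.27 in NILDOG1, an 18.1-fold rise (adjusted p = 3.34e-08). AT5G45540 had 2.45, 2.51 and 1.93 in Ler, all within background, and 6.37, 5.43 and 6.05 in NILDOG1, where it was at least 10.5-fold above the background limit (adjusted p = 4.48e-06). These 3 genes were near the floor of the array in Ler and well above it in NILDOG1. In dog1-1, AT5G43450 had 8.11 ± 0.079 and LUL1 6.65 ± 0.0753. AT5G45540 had 3.40 ± 0.0837 there, below NILDOG1 but above Ler by 1.1 (adjusted p = 0.00363).

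Enzyme genes made up several of the next rises. AT5G48110, of the terpene synthase family, went from 3.05, 3.43 and 3.66 in Ler to 4.92, 5.86 and 5.93 in NILDOG1, 4.57-fold. AT5G42830, of the HXXXD acyltransferase family, went from 4.96, 4.65 and 5.0 to 6.73, 6.65 and 6.34, 3.25-fold. AT5G03370, of the acylphosphatase family, went from 4.54, 4.68 and 4.51 to 6.34, 6.47 and 6.78, 3.87-fold. Each had adjusted p-values of 0.00137 or lower, and none of their arrays overlapped. AT5G47550 encodes a cystatin, of a family that inhibits cysteine proteases. It had 8.41, 7.84 and 7.75 in Ler and 9.82, 9.67 and 9.84 in NILDOG1, a rise of 3.42-fold from an already high level (adjusted p = 7.63e-05). AT5G43190, of the F-box and kelch repeat family, rose 4.02-fold, from 4.72, 5.38 and 5.41 to 7.33, 7.15 and 7.05. AT5G28110, annotated as a pseudogene and measured by a probe set that may also bind transcripts of other genes, had 4.94, 5.23 and 5.58 in Ler and 7.99, 7.59 and 7.31 in NILDOG1, and was at background in dog1-1 (2.27 ± 0.188). The other 3 of the 12 largest rises were AT5G48340 (1.65), AT5G40960 (1.32) and AT5G02580 (1.23, with no call without NILDOG1 replicate 1). Of the 12, AT5G28110 was lower in dog1-1 than in Ler (-2.98, adjusted p = 7.46e-07). AT5G48110 did not pass for dog1-1 minus Ler (0.17, adjusted p = 0.746). The others were higher in dog1-1 than in Ler as well, from 0.62 for AT5G02580 (adjusted p = 0.0355) to 5.16 for AT5G43450 (adjusted p = 4.39e-10). Over all probe sets 13.6% passed for dog1-1 against Ler. The 12 were chosen by their difference from the same Ler arrays, so the 2 comparisons are not independent.

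The falls on chromosome 5 were smaller than the largest rises. AT5G38780, of the methyltransferase family that acts on salicylic acid and related acids, had 8.77, 9.28 and 9.31 in Ler and 7.17, 7.08 and 7.08 in NILDOG1. It fell 4.03-fold (SE 0.131 on the log2 scale, adjusted p = 9.7e-06), the largest fall of a well expressed gene among those named. AT5G48350 went from 4.63, 5.05 and 4.66 to 2.80, 2.76 and 2.47, a fall of 4.30-fold that ended near background. AT5G46040, of the peptide transporter family, went from 4.20, 3.91 and 3.97 to a mean at background (2.44, 2.76 and 2.33), at least 2.77-fold lower. AT5G45790 had 3.73, 4.36 and 4.11 in Ler and the same value, 2.97, on all 3 NILDOG1 arrays. It fell 2.14-fold (adjusted p = 0.00272).

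Other falls were in genes of moderate level. AT5G02280, which encodes a SNARE-like protein, had 6.04, 5.95 and 5.86 in Ler and 4.75, 4.70 and 4.73 in NILDOG1, 2.34-fold lower. AT5G46160, a ribosomal protein gene, had 7.0, 7.09 and 7.25 against 6.08, 6.04 and 6.04, 2.09-fold lower. TRM28 encodes a protein of the family that recruits TON1, a factor of microtubule arrays, and went from 5.93, 6.30 and 6.43 to 5.01, 5.32 and 4.98, 2.17-fold lower (adjusted p = 0.00143). It was the gene of this group in which dog1-1 differed most from NILDOG1: it had 6.37 ± 0.0155 there, close to Ler, and NILDOG1 minus dog1-1 was -1.27 (adjusted p = 4.83e-05). AT5G43822 (-1.47), AT5G43680 (-1.40), AT5G41960 (-1.14), AT5G03320 (-1.06) and AT5G37310 (-1.02) completed the 12 largest falls. The call of AT5G03320, a protein kinase gene, was lost in 6 of the 16 settings. Of the 12, TRM28 (0.15, adjusted p = 0.533) and AT5G46160 (-0.37, adjusted p = 0.0889) did not pass for dog1-1 minus Ler. The others were lower in dog1-1 than in Ler as well, from -0.78 for AT5G02280 to -3.08 for AT5G38780 (adjusted p of 0.000848 or lower). Here too the genes were chosen against the same Ler arrays, and 13.6% of all probe sets passed for dog1-1 against Ler.

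**Figure D3:**
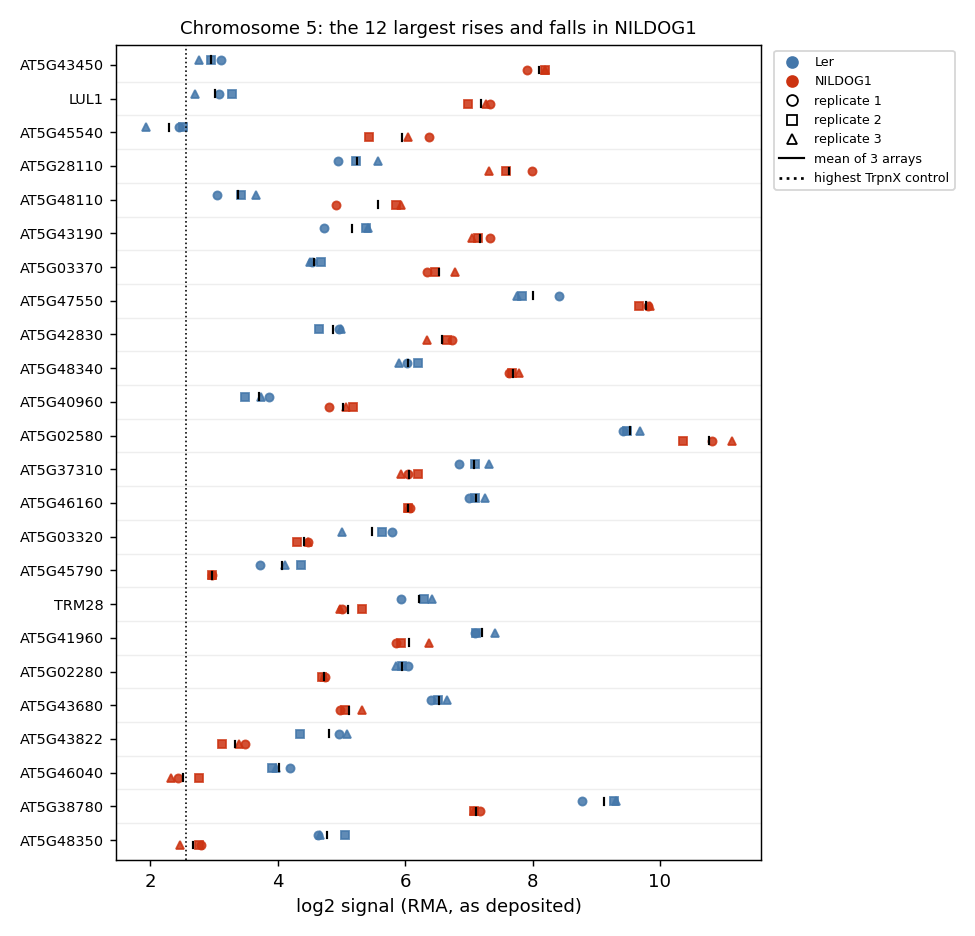
Log2 signal (horizontal axis) of the 3 Ler arrays (blue) and 3 NILDOG1 arrays (red) for the 12 largest rises and 12 largest falls on chromosome 5, with the mean of each genotype as a black bar and the background limit of 2.56 as a dotted line. The genotypes do not overlap in any of these genes, and AT5G45540 in Ler and AT5G46040 in NILDOG1 have means below the limit.

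Neighbouring genes on chromosome 5 did not all change in one direction. AT5G48340 rose by 1.65 while AT5G48350 beside it fell by 2.11 and AT5G48370 fell by 0.96 (adjusted p = 0.0312). AT5G43670, a Sec23/Sec24 family gene of vesicle coats, rose by 0.90, and AT5G43680 fell by 1.40. AT5G43450 and AT5G43460 both rose, by 5.15 and 1.00, and AT5G41950 and AT5G41960 both fell, by 0.52 and 1.14. Counted in protein-coding loci of the gene table, the called genes nearest to DOG1 were AT5G45790 at 4 loci, AT5G46040 at 23, AT5G45590 at 25 and AT5G45540 at 31. Within 60 loci on either side of DOG1, 56 genes were measured and 6 were called, 1 higher and 5 lower, beside 6.99% of the probe sets of the whole stretch and 1.89% of those of the chromosome. These 6 lie within that stretch.

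The genes that carry out maturation and germination were also followed by list. There were 216 genes in 14 lists. Of the 74 that could be measured, 0 passed with limma, where 0.545% of all probe sets did. At an unadjusted p under 0.05, 3 were higher and 3 lower (3.11% and 2.8% of all probe sets). Late embryogenesis abundant (LEA) proteins protect cells as they dry. Their 29 measured genes had a median difference of 0.001, beside -0.002 for all probe sets, and ranged from -0.44 to 0.22. AT3G15670, the most abundant of them, had 13.90, 13.90 and 13.89 in Ler and 13.92, 13.90 and 13.92 in NILDOG1. The seed storage list had a median of 0.045 over 5 genes and the oil body list 0.107 over 4. PAP85, a vicilin-like storage protein gene, had 13.38, 13.50 and 13.48 in Ler and 13.51, 13.55 and 13.43 in NILDOG1, so the arrays overlapped. AT3G01570, an oleosin gene, had 12.88, 12.84 and 12.74 against 12.82, 12.83 and 12.90.

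Heat shock genes had the highest list median, 0.221 over 10 genes, with a range of -0.43 to 0.90. None passed, and 3 were higher and 1 lower without adjustment. In 4 of the 10, among them AT3G09440, which was lower, the Ler and NILDOG1 arrays did not overlap. That held for 9.32% of all probe sets. The largest difference was that of ATHSP22.0, a small heat shock protein of the endoplasmic reticulum (5.86 in Ler, 6.77 in NILDOG1, adjusted p = 0.348). It passed in 3 alternatives: the 6 arrays alone (adjusted p = 0.00848), centring on the hybridization controls, and without dog1-1 replicate 1. Its SD was 0.0578 in Ler, 0.172 in NILDOG1 and 0.718 in dog1-1, whose arrays entered the fit of the spread. The missing call in the main fit therefore does not show equal levels in Ler and NILDOG1. AT3G09440, of the HSP70 family, had a difference of -0.43 (adjusted p = 0.466). AT1G54050, the most abundant of the list, had 10.18, 10.42 and 10.16 in Ler and 10.35, 10.27 and 10.63 in NILDOG1.

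Regulators and hormone genes were thinly covered, and 0 of those measured passed. Of the dormancy and maturation regulators, 3 of 22 were measured (median -0.064). AT4G18650, a relative of DOG1, had 9.43 on each Ler array and 9.66, 9.50 and 9.69 in NILDOG1; the arrays did not overlap, but the difference of 0.19 did not pass (adjusted p = 0.851). EEL, a bZIP factor of abscisic acid responses in seeds and the single measured gene of its list, had 7.61, 7.5 and 7.70 against 7.42, 7.70 and 7.59. The gibberellin receptor gene GID1A had 9.07, 9.05 and 9.04 against 9.20, 9.07 and 8.98, and the 4 gibberellin genes ranged from -0.04 to 0.28. None of the 11 genes of abscisic acid synthesis and breakdown had a named probe set, so they were not analysed here.

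The other lists had medians between -0.161 and 0.08. ICL, isocitrate lyase of oil mobilisation, had 12.69, 13.07 and 13.07 in Ler and 13.06, 13.07 and 12.83 in NILDOG1. EXPA15, an expansin gene of cell wall loosening, had 4.46, 4.76 and 4.36 against 4.23, 4.41 and 4.76, and COR15B, a cold-regulated gene, had 2.91, 2.75 and 2.93 against 2.79, 2.91 and 3.39. Among the markers of other tissues, LHCB4.1 of the photosynthetic antenna had 8.31, 9.18 and 8.77 against 9.13, 8.95 and 8.79. BAN of the seed coat had 2.73, 2.93 and 2.86 against 2.54, 2.97 and 2.78. In all 5 of these genes the arrays overlapped. IKU2, a receptor kinase gene of the endosperm, had 4.10, 3.93 and 4.05 against 3.77, 3.82 and 3.82, without overlap but with an adjusted p of 0.82.

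**Figure D4:**
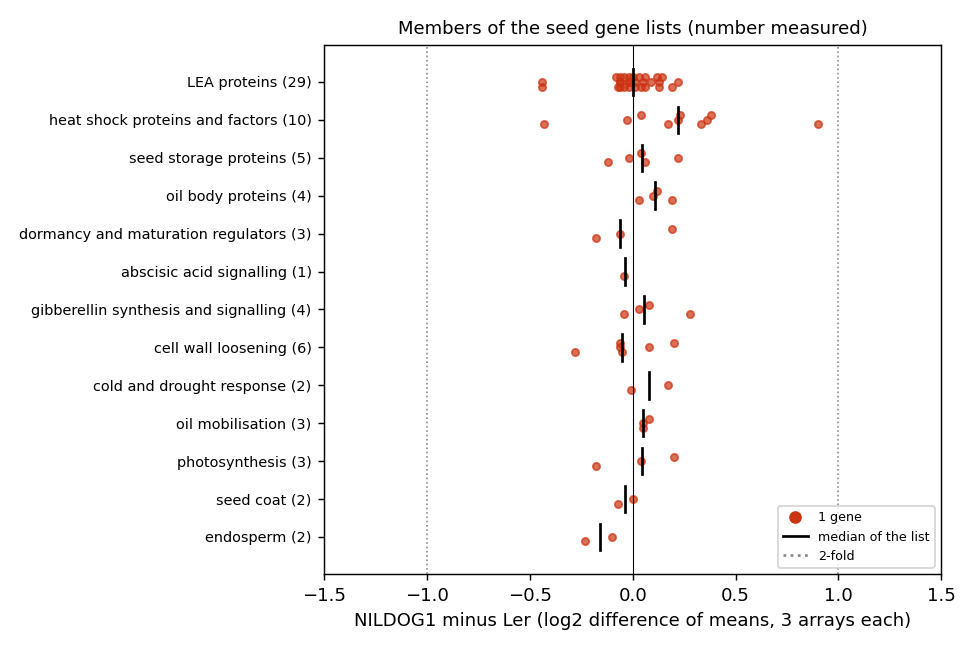
Log2 difference between NILDOG1 and Ler (horizontal axis) for each measured member of the gene lists (red points), with the median of each list as a black bar and 2-fold as dotted lines. All 74 genes lie within 2-fold, and the medians lie between -0.161 and 0.221.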

How the data were processed

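Expression was measured in dry seeds on 9 Affymetrix arrays, 1 per biological replicate. The authors deposited log2 signals, 1 value per probe set and array. The submitters' processing notes name RMA for their normalization, the version is not given in the sources used here, and the log scale was read from the values. Of 22810 probe sets, 64 controls were left out and 22746 tested. Names came from the platform annotation, matched to the TAIR10.1 RefSeq gene table: 13484 probe sets had 1 locus, 29 a gene that did not match, 503 several genes, and 8730 were not listed. List members with more than 1 probe set were read from the brightest.

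NILDOG1 was compared with Ler in R 4.3.3 with limma 3.58.1 (lmFit, eBayes) in 1 fit of all 9 arrays, genotype as the only term, 6 residual degrees of freedom, and Benjamini-Hochberg adjustment over all probe sets tested at 0.05. The procedure was tested on simulated data with noise drawn independently for each probe set and array. That test therefore did not cover variation that genes share on an array. Arrays carry no depth, and their number limits the precision. No set test was run. Alternatives were 7 other settings and leaving out each array. Named genes were all those called on chromosomes 1 to 4, the 12 largest rises and falls on chromosome 5, and per list the members called or, with none, the one with the highest mean; others were named after their values were seen. The members, lists and tests were chosen with earlier results of these data known. No sequences are shown, since none were used here.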

Additional observations from a re-analysis of the deposited data

How the results depend on the processing

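The count of genes changed outside chromosome 5 (11) moved by over 1.5 times in both directions. Beside the lower counts without single arrays, it was 17 with dim probe sets left out (20063 tested), 26 centred on the hybridization controls, 17 with a variance prior following the mean signal, and 22 with array weights. All 11 were among the genes called in each of these 4 settings, and the cause was not tested. Leaving out 1 array gave 65 to 137 probe sets in all, 4 to 16 outside chromosome 5, 33 to 57 on it, and 0 to 1 list member; a fit with 1 array fewer has 5 residual degrees of freedom. The count of list members became 1 (ATHSP22.0) with the 6 arrays alone and when centred on the hybridization controls. With the 6 arrays alone the other counts were 100, 10 and 47, and 6 of the 10 were among the 11. Plants were grown in blocks, per the labels, which do not say that a replicate number is a block. Residual correlations of Ler and NILDOG1 arrays with the same number were -0.231, -0.0824 and -0.07, and those with different numbers ran from -0.15 to 0.275. With 3 arrays per genotype these values cannot decide whether the numbers pair the arrays. The dog1-1 arrays were not part of this measure. With the replicate block the counts were 114, 15 and 46, and 0 list members. Of the 11 genes outside chromosome 5 and the 12 largest rises and 12 largest falls on it, 9 lost the call in at least 1 of 16 settings, and all kept their sign; other called genes named were not followed across settings.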

Other observations

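Just under the threshold outside chromosome 5 lay genes in both directions, among them CYP78A9 (-0.94, adjusted p = 0.0947), a cytochrome P450 gene. They are named here after their values were seen. AT1G26380, of the berberine bridge enzyme-like oxidase family, had a mean of 3.46 ± 0.302 in Ler and 5.17 ± 0.782 in NILDOG1, a difference of 1.7 (adjusted p = 0.0655) that passed in 7 of 16 alternatives. AT1G55450, a methyltransferase-family gene, had a difference of 1.06 (adjusted p = 0.0521) and passed in 9. AT1G27030 had 7.46 ± 0.0173 in Ler and 8.05 ± 0.0696 in NILDOG1, a difference of 0.59 (adjusted p = 0.0521), and NILDOG1 was higher than dog1-1 by 4.34 (adjusted p = 2.8e-09). Of 19 measured CYP71B cytochrome P450 genes 1 was called, and 4 were higher and 0 lower at an unadjusted p under 0.05, with a median of 0.017. Over the wider group CYP71 to CYP99 these counts were 1 called of 24, 4 higher and 1 lower. Of 7 calmodulin-like genes 1 was called, and 1 was higher and 2 lower without adjustment, from -0.41 for CML43 to 0.94 for CML42. Of 47 UDP-glycosyltransferase genes 0 were called with limma, 4 being higher and 3 lower without adjustment, and of 14 expansin genes 0 were called and 0 differed without adjustment. Over all probe sets 0.545% were called, and 3.11% were higher and 2.8% lower without adjustment.

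The 10 genes that rose outside chromosome 5 also had 1 array on top in dog1-1. Replicate 2 was the highest dog1-1 array in 9 of the 10 and the highest NILDOG1 array in 8, but the highest Ler array in 1. Over all probe sets it was the highest array in 29.6%, 33.9% and 32.7%. The mean level of the 10 was 5.31, 5.8 and 5.51 on dog1-1 replicates 1, 2 and 3. On chromosome 5, replicate 2 was the highest in 19 of 57 called probe sets in dog1-1 and 19 of 57 in NILDOG1. Among the 34 probe sets called higher without a single named gene, it was the highest in 20 in dog1-1, 16 in NILDOG1 and 16 in Ler. The labels do not tie the numbers to growth blocks, and the part of this pattern in the calls was not tested.

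Of the 55 called probe sets without a single named gene, 34 were higher and 21 lower. The largest rise measured in both genotypes was 3.0 and the largest falls were -2.15 and -1.75. Another probe set had a Ler mean at background and was at least 6.3-fold higher in NILDOG1. Their genes and positions were not analysed here.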
